A study of Mus musculus with 12 samples.

Results

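The CXC chemokine genes described here are 9 of the 31870 genes on the array: 7 chemokines, Cxcl1, Cxcl2, Cxcl5, Cxcl12, Cxcl13, Cxcl14 and Cxcl16, and 2 receptors, Cxcr4 and Cxcr6. They were taken by symbol, and the brightest probe stood for a gene with several. Liver RNA of 12 mice was measured on 12 one-colour Agilent arrays, 1 mouse per array, to ask, per the series title, how factor VII-activating protease (FSAP) bears on fibrosis in injured mouse liver. FSAP is a circulating serine protease encoded by Habp2. There were 4 groups of 3 mice. Wild-type mice (WT, FSAP+/+) had a sham operation or bile duct ligation (BDL), in which the common bile duct is tied off, and FSAP-deficient mice (FSAP-/-) had the same pair of procedures. All 12 mice came from crosses of heterozygotes whose line had been backcrossed to BalbC up to the F3 generation, a background that every group shared. They were 20 to 30 weeks old and were killed 2 weeks after surgery. Neither the deleted stretch of Habp2 nor the sex of the mice is given in the labels.

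CXC chemokines are small secreted or membrane-bound proteins that steer leukocytes along gradients by binding G protein-coupled CXC receptors. Those with a glutamate-leucine-arginine (ELR) motif, among them Cxcl1, Cxcl2 and Cxcl5 in the mouse, bind Cxcr2 and draw neutrophils. Cxcl12 binds Cxcr4 and the scavenging receptor Ackr3, Cxcl16 binds Cxcr6 on T, natural killer (NK) and NKT cells, Cxcl13 binds Cxcr5 on B cells, and the receptor use of Cxcl14 is less settled. In the liver, these genes are expressed by hepatocytes, sinusoidal endothelium, stellate cells, bile duct epithelium and macrophages as well as by the leukocytes that enter the tissue.

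The Cxcl1, Cxcl2 and Cxcl5 probes lay on the same strand within 144.0 kb of mouse chromosome 5, and those of Cxcl1 and Cxcl2 within 12.7 kb (mm9). Of the 9 genes, 7 had a promoter window in the RefSeq table (GRCm38.p6), and Cxcl5 and Cxcl16 had no entry. The 250 bases before the start were searched on both strands for the NF-kB consensus and on the gene's strand for TATAAA. The NF-kB consensus was found in Cxcl1 and Cxcl2 only among the 7 windows, compared with 1281 of 32851 windows in the table (3.9%). Each held an overlapping match on both strands, which begins 71 bases before the start in Cxcl1 and 97 bases before it in Cxcl2. The motif TATAAA was found in Cxcl13 and Cxcr4, and in 7.59% of all windows. The 120 bases before the start are shown for these neighbours, which hold the same run of letters, and for Cxcl12, which fell after BDL, and Cxcl14, which rose, neither of which holds it. The windows are chr5:90891125-90891244 (plus strand) for Cxcl1, chr5:90903779-90903898 (plus) for Cxcl2, chr6:117168415-117168534 (plus) for Cxcl12 and chr13:56296552-56296671 (minus) for Cxcl14, each written 5′ to 3′ on the gene's strand with the overlapping NF-kB matches in capitals. A match is a run of letters and not a measured binding site.
Cxcl1: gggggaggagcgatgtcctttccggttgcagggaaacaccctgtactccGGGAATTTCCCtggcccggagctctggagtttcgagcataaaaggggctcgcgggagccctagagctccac
Cxcl2: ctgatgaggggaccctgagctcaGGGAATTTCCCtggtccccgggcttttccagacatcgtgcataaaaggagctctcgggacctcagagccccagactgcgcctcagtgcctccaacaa
Cxcl12: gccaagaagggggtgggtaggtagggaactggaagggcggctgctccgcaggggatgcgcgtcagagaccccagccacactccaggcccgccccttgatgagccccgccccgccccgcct
Cxcl14: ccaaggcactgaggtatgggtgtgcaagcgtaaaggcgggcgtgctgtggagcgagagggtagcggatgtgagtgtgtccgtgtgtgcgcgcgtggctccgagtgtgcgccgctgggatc

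Values are log2 of the processed signal relative to the array's 75th percentile, so that 0 stands for a signal at that percentile. Since a probe's brightness depends on its sequence, levels are compared between groups for each gene and not between genes. All 9 genes passed the filter on dim signal, which asked for 3 or more arrays with the probe well above background. Cxcl2 was well above background on 4 arrays, Cxcl5 on 6, Cxcr4 on 7 and the other 6 genes on all 12. The share of spots well above background per array ran from 54.5% to 62.3%, and no spot was saturated. Habp2 stood between 4.97 and 5.50 in the 6 WT livers and between -7.18 and -3.45 in the FSAP-deficient livers, where replicate 1 of the sham group was the only one well above background. That array's file had been saved again with fewer digits and correlated least with its group (lowest r = 0.975). Among FSAP-deficient BDL livers the correlations ran from 0.971 to 0.981, so that value was not the lowest of the series. The Y-linked Ddx3y was well above background in 0 of 6 WT livers and in 3 FSAP-deficient livers, which were sham replicate 1 and BDL replicates 1 and 2. On those 3 arrays Xist, an RNA of the inactive X chromosome, was not well above background (-7.52, -7.14 and -6.97). On every other array Xist was well above background. By both genes those 3 mice read as male and the others as female, so sex was mixed with genotype and, in FSAP-deficient mice, with operation. Leaving these 3 arrays out keeps 1 FSAP-deficient BDL liver, replicate 3. The slides held 1 to 4 arrays each, and no slide held both genotypes of the same operation, so slide and genotype cannot be told apart directly. Within slide 1 the WT sham livers stood beside 1 WT liver after BDL, and within slide 3 the FSAP-deficient livers after BDL stood beside 1 FSAP-deficient sham liver. The fit with slide as a block gave these within-slide contrasts for BDL.

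After BDL, Cxcl1, Cxcl5, Cxcl14, Cxcl16 and Cxcr4 rose in both genotypes, Cxcl12 fell in both, Cxcl2 rose in FSAP-deficient livers and Cxcr6 fell in WT livers. In WT livers 7 of the 9 genes changed (limma, adjusted p under 0.05), 5 higher and 2 lower, where 32.9% of all 19531 genes tested changed, 15.2% higher and 17.7% lower. In FSAP-deficient livers 7 of 9 changed, 6 higher and 1 lower, against 39.1% of all genes, 16.2% higher and 22.8% lower. Cxcl2 and Cxcl5 passed the filter on dim signal only through BDL livers, and Cxcr4 mostly so, which favours a rise over a fall for them. The 9 genes were also chosen with earlier results of these data known, so the counts are no test of the family. The groups of sham and BDL did not overlap for 7 of 9 genes in WT (52.1% of all genes) and for 7 of 9 in FSAP-deficient livers (47.5% of all genes). The median log2 change of the 9 genes was 1.82 in WT and 2.11 in FSAP-deficient livers, or 0.94 and 1.74 with genes below background in sham livers set at their bound. Over all genes tested the median was -0.03 and -0.16. Without the 3 arrays with Y-linked signal, 1 FSAP-deficient BDL liver was left. Its change from sham was 3.09 for Cxcl1, 2.72 for Cxcl2, 7.23 for Cxcl5, 5.48 for Cxcl14, 1.49 for Cxcl16, 4.20 for Cxcr4 and -1.29 for Cxcl12. Hepatocyte, bile duct, neutrophil, macrophage, lymphocyte and stellate markers shifted with BDL too, as given beside the genes below. Their counts stand beside the shares of all genes that rose or fell, given above. In bulk liver RNA, a change in the number of cells of a type and a change in RNA per cell cannot be told apart.

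**Figure D1:**
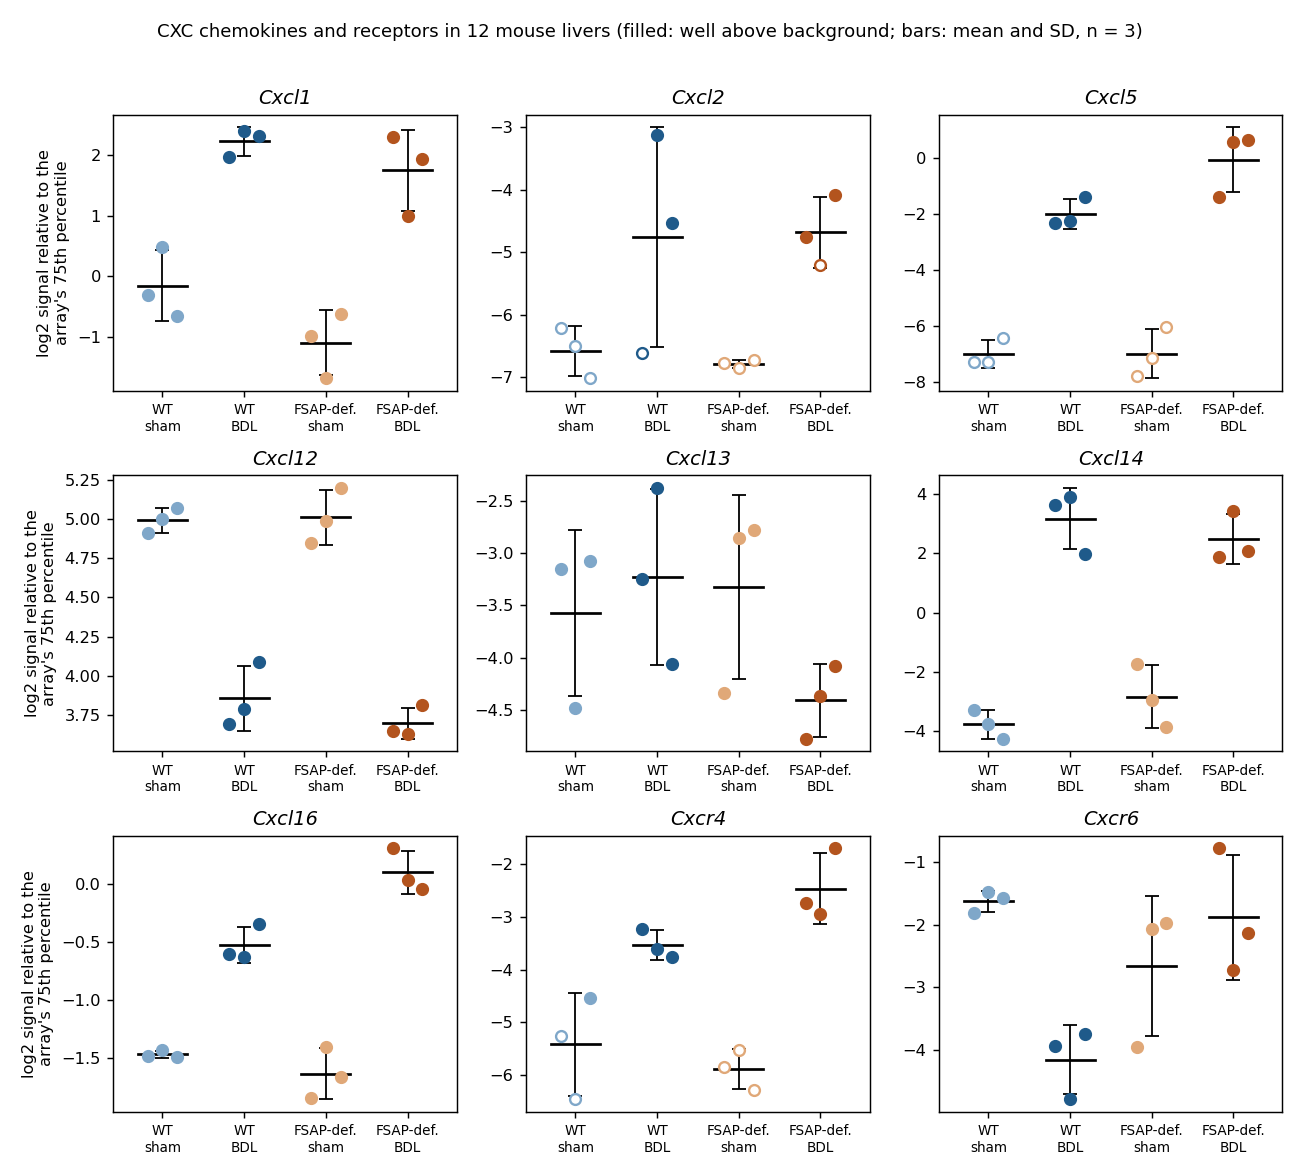
Log2 signal relative to the array's 75th percentile for each of the 9 genes, 1 point per mouse, in the 4 groups; horizontal bars show the mean, error bars the SD (n = 3), and open points were not well above background. Cxcl5 and Cxcl14 show the widest separation of BDL from sham in both genotypes, Cxcl12 is lower after BDL in both, and Cxcr6 is lower after BDL in WT livers, with FSAP-deficient sham replicate 1 at a similar level.

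Of the ELR ligands among the genes described here, Cxcl1 and Cxcl5 rose in both genotypes. Cxcl1, a neutrophil attractant, stood at -0.31, 0.49 and -0.65 in WT sham livers and at 1.96, 2.40 and 2.31 after BDL. In FSAP-deficient livers it stood at -0.99, -1.68 and -0.62 after sham and at 2.30, 1.00 and 1.94 after BDL. Every BDL liver lay above every sham liver. The rise was 2.38 on the log2 scale (SE 0.39, adjusted p = 0.00113, 5.21-fold) in WT and 2.84 (SE 0.39, adjusted p = 0.000314, 7.18-fold) in FSAP-deficient livers. Within a slide it was 2.12 and 2.37. The 2 genes with profiles most like that of Cxcl1 over the 12 arrays were Lekr1 (root mean square difference of centred log2 values 0.45) and Pram1 (0.47), where Cxcl1 itself ranged over 4.08.

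Cxcl5, an epithelial ELR ligand of the mouse, rose from below detection. It was not well above background in any sham liver, with measured values between -7.29 and -6.41 in WT and between -7.76 and -6.04 in FSAP-deficient mice. After BDL it was well above background in all 6 livers, at -2.33, -2.25 and -1.39 in WT and at -1.38, 0.59 and 0.64 in FSAP-deficient livers. Only bounds can be given for the size of the rise. For these, each sham array contributes either the value of this probe or the dimmest value that still counted as well above background there, whichever is higher, and the BDL mean is set against their mean. By this bound Cxcl5 was at least 8.09-fold higher in WT (measured log2 change 5.0, SE 0.58, adjusted p = 0.000137). In FSAP-deficient livers it was at least 29.7-fold higher (measured 6.93, SE 0.58, adjusted p = 2.3e-05). With normexp background correction, which lifts dim signals, the measured changes became 1.69 and 3.47, and both kept an adjusted p under 0.05. The most similar profiles were those of Ankrd1 (0.64) and Reg3b (0.78), where Cxcl5 ranged over 8.40.

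Cxcl2, the close neighbour of Cxcl1, was near the detection limit. It was not well above background in any sham liver (-7.02 to -6.22 in WT, -6.86 to -6.73 in FSAP-deficient mice). After BDL it measured -6.62, -3.12 and -4.54 in WT, where replicate 1 lay at sham level and replicates 2 and 3 were well above background. In FSAP-deficient livers after BDL it measured -4.76, -5.21 and -4.08, of which replicates 1 and 3 were well above background and all exceeded the sham values. The WT change of 1.82 (SE 0.68) did not pass (adjusted p = 0.0611), while without WT BDL replicate 1 it was 2.75 (adjusted p = 0.00148), and within slide 1, which holds that replicate, it was -0.036. In FSAP-deficient livers Cxcl2 rose, by at least 1.20-fold (measured 2.11, SE 0.68, adjusted p = 0.03). That call was lost when any FSAP-deficient sham array, or BDL replicate 1 or 3, was left out (1.81 to 2.15, adjusted p 0.0618 to 0.0988), and with normexp correction the value was -0.0049. Gfpt2 (0.42) and Lgi2 (0.48) had the profiles most like it, over a range of 3.90 for Cxcl2.

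Their receptor Cxcr2, carried by neutrophils, was not well above background in any sham liver and was so in all 6 BDL livers. It thus passed the filter on dim signal only through BDL livers, which favours a rise over a fall. Cxcr2 rose at least 3.24-fold in WT (adjusted p = 0.0148) and at least 3.49-fold in FSAP-deficient livers (adjusted p = 0.00182). The WT call was lost with slide as a block (measured change 1.94) and without WT sham replicate 2 or WT BDL replicate 2 (1.80 and 1.99, adjusted p = 0.0588 and 0.0596), and with normexp correction the change was 0.67. Of 8 neutrophil markers on the array, 3 rose in WT and 4 in FSAP-deficient livers, and 1 in each with slide as a block. The summed neutrophil marker level, in units of the array's 75th percentile, was 7.03 to 16.6 in WT sham, 23.6 to 76.5 in WT BDL, 5.69 to 11.1 in FSAP-deficient sham and 23.1 to 71.9 in FSAP-deficient BDL livers. A sum adds linear signals, so the brightest markers weigh most in it. The part of neutrophils in the rise of Cxcr2 or of its ligands was not tested.

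Cxcl14 rose strongly in both genotypes. This chemokine of epithelia and stroma measured -3.28, -3.75 and -4.25 in WT sham livers and 3.63, 3.91 and 1.99 after BDL. In FSAP-deficient livers it measured -1.72, -2.93 and -3.84 after sham and 1.89, 3.44 and 2.09 after BDL. The lowest BDL liver lay more than 3 log2 units above the highest sham liver, and all 12 values were well above background. The change was 6.93 (SE 0.64, adjusted p = 3.82e-05, 122-fold) in WT and 5.31 (SE 0.64, adjusted p = 0.000146, 39.6-fold) in FSAP-deficient livers. It was 7.39 and 6.32 within a slide, 5.64 and 4.44 with normexp correction, and 7.53 in WT without WT BDL replicate 3. The interaction of genotype and BDL was -1.63 (SE 0.90) and did not pass (adjusted p = 0.465). Serpinb6b (0.60) and Spink1 (0.74) had the profiles most like it, over a range of 8.16 for Cxcl14.

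Markers of bile duct epithelium rose together with Cxcl5 and Cxcl14 in both genotypes. All 7 cholangiocyte markers tested rose in both genotypes, though Epcam passed the filter on dim signal only through BDL livers. Their summed level was 1.35 to 1.62 in WT sham, 13.3 to 16.5 in WT BDL, 1.29 to 1.97 in FSAP-deficient sham and 11.7 to 43.9 in FSAP-deficient BDL livers. The brightest of them after BDL, Spp1 (means 3.26 in WT and 4.30 in FSAP-deficient livers), weighs most in that sum. Of 8 markers of stellate cells and fibroblasts, 2 rose in WT and 5 in FSAP-deficient livers. Their sums were 38.7 to 42.8, 23.5 to 73.2, 32.0 to 40.2 and 66.9 to 143 in the same order of groups, and those of WT sham and BDL overlap. Dcn, the brightest of them (mean 5.22 in WT sham livers), weighs most in the WT sums. As single markers, Pdgfrb, Col1a1 and Col3a1 did not overlap between WT sham and BDL livers, and the others did. In the slide-block fit, 1 stellate marker rose and 1 fell in WT, and 5 rose in FSAP-deficient livers. The part of these cells in the rises was not tested.

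Cxcl12, the homeostatic ligand of Cxcr4, fell after BDL in both genotypes with little spread. It measured 4.91, 5.0 and 5.07 in WT sham livers and 3.69, 3.79 and 4.09 after BDL. FSAP-deficient livers measured 4.85, 4.99 and 5.20 after sham and 3.65, 3.63 and 3.81 after BDL. All 6 BDL livers lay below all 6 sham livers. Cxcl12 fell by 1.14 on the log2 scale in WT (SE 0.15, adjusted p = 0.000297, 2.20-fold) and by 1.32 in FSAP-deficient livers (SE 0.15, adjusted p = 0.000106, 2.50-fold). Within a slide the change was -1.30 and -1.50. It was smaller with quantile normalization (-0.85 and -0.88) and on the authors' values (-0.88 and -0.92), each with an adjusted p under 0.05. The size of the fall thus depends on the normalization. Mfhas1 (0.10) and Pgrmc2 (0.12) had the profiles most like it, over a range of 1.57.

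A second, dimmer Cxcl12 probe gave a less even picture. The brighter probe is annotated to the transcript NM_001012477 (mm9, chr6:117131227-117131286, plus strand) and the dimmer to NM_021704 (chr6:117125026-117125085, plus strand). The dimmer probe measured 1.99, 1.84 and 2.08 in WT sham and 0.20, 0.84 and 1.66 in WT BDL livers. It measured 1.79, 2.03 and 2.17 in FSAP-deficient sham and 1.45, 1.33 and 1.78 in FSAP-deficient BDL livers. On this probe, too, every BDL liver lay below the sham livers of its genotype. The change in WT was -1.07 (SE 0.30, adjusted p = 0.0197), and that in FSAP-deficient livers, -0.48 (SE 0.30), did not pass (adjusted p = 0.24). The interaction on the dimmer probe was 0.59 (adjusted p = 0.584) and that on the brighter probe -0.18 (adjusted p = 0.755).

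**Figure D2:**
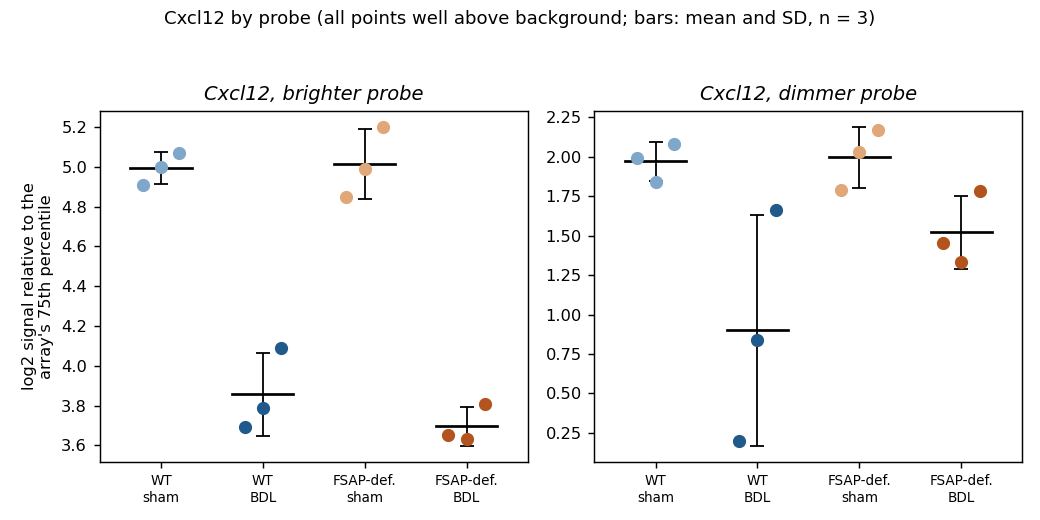
Log2 signal relative to the array's 75th percentile of the brighter (left) and dimmer (right) Cxcl12 probe, 1 point per mouse in the 4 groups; bars show the mean and SD (n = 3). The brighter probe drops by a similar amount in both genotypes, whereas on the dimmer probe the WT BDL livers spread from 0.20 to 1.66 and the FSAP-deficient BDL livers from 1.33 to 1.78.

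Hepatocyte and endothelial markers give the setting of that fall. All 8 hepatocyte markers were well above background on all arrays, and 3 fell in WT and 6 in FSAP-deficient livers. Their summed level was 2670 to 2950 in WT sham, 1440 to 2300 in WT BDL, 2780 to 3130 in FSAP-deficient sham and 1230 to 1770 in FSAP-deficient BDL livers. Among 8 markers of sinusoidal endothelium, 2 rose and 1 fell in each genotype, and the sums were 44.4 to 51.5, 41.0 to 42.9, 41.6 to 47.8 and 31.4 to 40.9 in the same order. With slide as a block, 1 hepatocyte marker rose and 1 fell in WT, and 3 fell in FSAP-deficient livers. The part of these cells in the fall of Cxcl12 was not tested.

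The receptor Cxcr4, by contrast, rose. It was well above background in 1 of 6 sham livers, WT replicate 3. WT livers measured -5.26, -6.46 and -4.54 after sham and -3.23, -3.60 and -3.77 after BDL. FSAP-deficient livers measured -5.85, -5.53 and -6.28 after sham and -2.74, -2.95 and -1.70 after BDL. Sham and BDL livers did not overlap in either genotype. The measured rise was 1.89 in WT (SE 0.46, adjusted p = 0.00964), against a sham group in which 1 of 3 livers was well above background, and it was at least 5.57-fold in FSAP-deficient livers (measured 3.42, SE 0.46, adjusted p = 0.000281). With normexp correction the WT value was 0.41 (adjusted p = 0.216) and the FSAP-deficient value 1.05 (adjusted p = 0.00403). Within slide 1 the WT change was 2.19 but did not pass with slide as a block (adjusted p = 0.0752), and within slide 3 the FSAP-deficient change was 3.81. Without the 3 arrays with Y-linked signal the FSAP-deficient change was 4.20, with 1 BDL liver left, the highest of its group for Cxcr4. The profiles most like that of Cxcr4 were Naip6 (0.41) and Lyz2 (0.45), the latter a lysozyme of macrophages and neutrophils, where Cxcr4 ranged over 4.75.

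Ackr3, which binds and removes Cxcl12, rose 5.72-fold in FSAP-deficient livers (2.52, SE 0.50, adjusted p = 0.00275). In WT livers the change was 1.40 (SE 0.50, adjusted p = 0.0537). The FSAP-deficient change was 2.17 with slide as a block and did not pass (adjusted p = 0.0502). The WT change passed without WT BDL replicate 1 (1.88, adjusted p = 0.0145). Of 8 macrophage and Kupffer cell markers, 7 rose in WT and all 8 in FSAP-deficient livers, and 4 and 7 did with slide as a block. Their sums were 41.2 to 62.5 in WT sham, 105 to 109 in WT BDL, 33.0 to 49.6 in FSAP-deficient sham and 115 to 143 in FSAP-deficient BDL livers. Their part in the rise of Cxcr4 was not tested.

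Cxcl16 and its receptor Cxcr6 took different courses. Cxcl16, a membrane-bound chemokine that also acts as a scavenger receptor, measured -1.48, -1.43 and -1.49 in WT sham livers and -0.60, -0.63 and -0.34 after BDL. In FSAP-deficient livers it measured -1.84, -1.40 and -1.66 after sham and 0.31, 0.04 and -0.04 after BDL. The BDL livers lay above the sham livers in both genotypes, and the FSAP-deficient BDL livers lay above the WT BDL livers. Cxcl16 rose by 0.94 in WT (SE 0.16, adjusted p = 0.00124, 1.92-fold) and by 1.74 in FSAP-deficient livers (SE 0.16, adjusted p = 3.29e-05, 3.34-fold). Within a slide it was 0.86 and 1.77. Rasgrp1 and 1110046J04Rik, each at 0.14, had the profiles most like it, over a range of 2.16.

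Cxcr6 fell in WT livers and not detectably in FSAP-deficient livers. WT livers measured -1.81, -1.48 and -1.58 after sham and -3.94, -4.79 and -3.74 after BDL, with no overlap. FSAP-deficient livers measured -3.95, -2.07 and -1.97 after sham and -0.78, -2.73 and -2.14 after BDL, which overlap. The lowest FSAP-deficient sham liver was replicate 1 and the highest BDL liver was also replicate 1, both among the 3 arrays with Y-linked signal. Cxcr6 fell by 2.53 in WT (SE 0.58, adjusted p = 0.00677, 5.79-fold). In FSAP-deficient livers the change was 0.78 (SE 0.58, adjusted p = 0.314, 95% interval -0.49 to 2.05). The WT fall was -1.53 with normexp correction, and -2.32 within slide 1, where it did not pass with slide as a block (adjusted p = 0.0579). The FSAP-deficient change was 0.09 within slide 3 and -0.12 without the arrays with Y-linked signal, which leaves 1 BDL liver.

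The other Cxcr6 probe, which shares 50 bases with the first by position, followed the same course. It measured -2.67, -2.14 and -2.72 in WT sham livers and -4.32, -6.00 and -4.49 after BDL, where only replicate 3 was well above background. FSAP-deficient livers measured -4.35, -2.93 and -2.61 after sham and -1.50, -3.62 and -2.90 after BDL. On this probe the WT change was -2.43 (SE 0.62, adjusted p = 0.0121) and the FSAP-deficient change 0.62 (adjusted p = 0.462). Since the probes overlap, they are not independent measurements.

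The genes most like Cxcr6 over the 12 arrays were Gbp3 (0.24) and Il2rb (0.26), the latter the interleukin-2 receptor chain of T and NK cells, where Cxcr6 ranged over 4.01. Il2rb measured -3.35, -3.35 and -3.26 in WT sham and -5.81, -6.13 and -5.45 in WT BDL livers, none of the last being well above background. In FSAP-deficient livers Il2rb measured -5.30, -3.82 and -3.93 after sham and -2.41, -3.99 and -4.33 after BDL. As for Cxcr6, the WT BDL livers and FSAP-deficient sham replicate 1 were low and FSAP-deficient BDL replicate 1 was highest. Of 6 T and NK cell markers tested, 4 fell in WT and 2 rose in FSAP-deficient livers, with median changes of -1.46 and 1.09. Cd3d, a T cell receptor complex chain, fell by 1.68 in WT (adjusted p = 0.0173) and rose by 1.40 in FSAP-deficient livers (adjusted p = 0.0334). The Cd3d rise was lost without FSAP-deficient sham replicate 1 (0.90) or BDL replicate 1 (0.89), and its WT fall without WT sham replicate 3 (-1.57) or WT BDL replicate 2 (-1.58). With slide as a block 1 marker fell in WT and 0 rose in FSAP-deficient livers, and without the 3 arrays with Y-linked signal 4 fell and 0 rose. The summed level of these markers was 5.06 to 5.75 in WT sham, 3.54 to 5.70 in WT BDL, 5.48 to 6.26 in FSAP-deficient sham and 4.46 to 8.39 in FSAP-deficient BDL livers. Cd3e and Nkg7, the brightest of them, weigh most in that sum, with means of 1.28 and 0.98 in WT sham and 1.22 and 0.92 in WT BDL livers. Cd3g and Il2rb were well above background in 0 of 3 WT BDL livers, and Klrb1c was not in any liver. The part of lymphocyte numbers in the Cxcr6 values was not tested.

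Cxcr3 and its ligands Cxcl9, Cxcl10 and Cxcl11 form a further lymphocyte axis. Of these, Cxcl11 changed in neither genotype, with means of 7.64 in WT sham, 7.37 in WT BDL, 7.84 in FSAP-deficient sham and 7.36 in FSAP-deficient BDL livers. Its probe was very bright in every group, and whether it measures Cxcl11 alone was not tested. It is counted among the other CXC chemokines below, of which 1 fell in FSAP-deficient livers with median scaling. Cxcr3, the receptor of activated T and NK cells, measured -2.58, -2.69 and -2.61 in WT sham and -4.73, -5.10 and -4.05 in WT BDL livers, a change of -2.00 (SE 0.44, adjusted p = 0.006). In FSAP-deficient livers its change was 0.25 (adjusted p = 0.693). Its interferon-inducible ligand Cxcl9 measured 0.47, 0.65 and 0.26 in WT sham and -2.11, -3.04 and -2.91 in WT BDL livers. In FSAP-deficient livers Cxcl9 measured -1.77, -0.19 and -0.17 after sham and 2.72, -1.16 and -0.27 after BDL. Cxcl9 fell by 3.15 in WT (SE 0.82, adjusted p = 0.0132) and its change in FSAP-deficient livers was 1.14 (adjusted p = 0.3). Cxcl10, another ligand of Cxcr3, rose by 2.20 in FSAP-deficient livers (SE 0.63, adjusted p = 0.0192), and its WT change was -0.95 (adjusted p = 0.282). The WT Cxcl10 change passed with only the WT groups in the fit (adjusted p = 0.00812) and without the 3 arrays with Y-linked signal (adjusted p = 0.0042), and the rise in FSAP-deficient livers did not with only those groups (adjusted p = 0.0773). The Cxcl10 rise was lost without FSAP-deficient sham replicate 1 (1.66, adjusted p = 0.0685), and with slide as a block neither Cxcl9 in WT (-2.57) nor Cxcl10 in FSAP-deficient livers (1.78) passed. Of Cxcr3, Cxcl9 and Cxcl10, none passed the interaction test (adjusted p = 0.165, 0.159 and 0.169). Without the 3 arrays with Y-linked signal, the interaction passed for Cxcl9 (3.06, adjusted p = 0.0415, against 4.29 with them) and Cxcl10 (1.89, adjusted p = 0.0425, against 3.14), and for the markers Cd3d (2.05) and Il2rb (2.01), both at an adjusted p of 0.0415. In that fit the FSAP-deficient arms held 2 sham livers and 1 BDL liver, which is assumed to vary like the others.

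**Figure D3:**
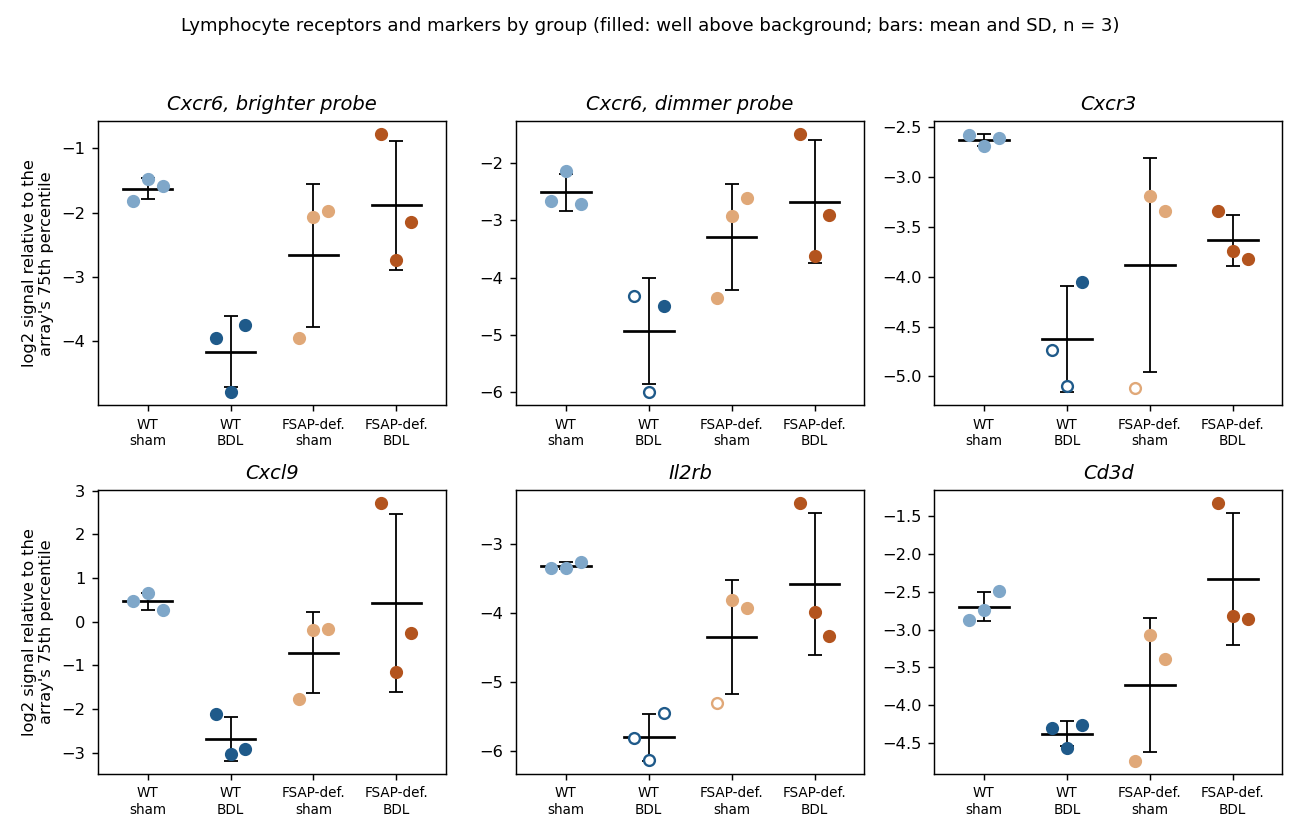
Log2 signal relative to the array's 75th percentile for both Cxcr6 probes, Cxcr3, Cxcl9 and the lymphocyte markers Il2rb and Cd3d, 1 point per mouse in the 4 groups; bars show the mean and SD (n = 3), and open points were not well above background. In each panel the WT BDL livers lie below the WT sham livers, FSAP-deficient sham replicate 1 is the lowest of its group and FSAP-deficient BDL replicate 1 the highest.

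Cxcl13, which organises B cell follicles, did not pass in any comparison. It measured -3.15, -4.49 and -3.07 in WT sham and -3.25, -2.37 and -4.06 in WT BDL livers, and the groups overlapped. In FSAP-deficient livers it measured -4.34, -2.85 and -2.77 after sham and -4.78, -4.37 and -4.08 after BDL. The BDL change was 0.34 in WT (adjusted p = 0.666, 95% interval -0.85 to 1.54) and -1.09 in FSAP-deficient livers (adjusted p = 0.134, 95% interval -2.29 to 0.10). Without FSAP-deficient sham replicate 1, the low member of its group, the latter was -1.60 and passed (adjusted p = 0.0367). The receptor Cxcr5 was well above background on 0 of 12 arrays. Of 4 B cell markers tested, 2 fell in WT and 1 in FSAP-deficient livers, with sums of 0.692 to 0.798 in WT sham, 0.331 to 0.365 in WT BDL, 0.286 to 0.940 in FSAP-deficient sham and 0.326 to 0.459 in FSAP-deficient BDL livers. Pax5 and Blk were not well above background on any array.

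The genotypes were then compared within each operation. In sham livers 0 of 9 genes differed between FSAP-deficient and WT mice (limma, adjusted p under 0.05), against 0.0154% of all genes tested, and after BDL 0 of 9 differed, against 0.215% of all genes. For the interaction, the difference between genotypes in the BDL change, it was 0 of 9 against 0.0102%. At an unadjusted p under 0.05 the counts were 1, 4 and 4 of the 9 genes, where 1538, 2522 and 2678 of the 19531 genes tested were. Under each of the 25 alternatives to the sham and BDL comparisons, and the 24 to the interaction, the count of the 9 genes stayed at 0. After BDL the FSAP-deficient and WT livers did not overlap for 5 of 9 genes (15.7% of all genes), with very small gaps for Cxcl5 and Cxcl13. After sham they did not overlap for 1 of 9 (17.1% of all genes). In sham livers that gene was Cxcr6, lower by a log2 difference of -1.04 (SE 0.58, adjusted p = 0.735). Cxcl1 in sham livers differed by -0.94 (SE 0.39) and overlapped (adjusted p = 0.588).

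After BDL, 4 genes lay higher in every FSAP-deficient liver than in any WT liver, and Cxcl13 lay lower. For Cxcl5 and Cxcl13 the gap was very small. The lowest FSAP-deficient value of Cxcl5 was -1.38 and its highest WT value -1.39. The highest FSAP-deficient value of Cxcl13 was -4.08 and its lowest WT value -4.06. Cxcr6 was 4.84-fold higher (log2 difference 2.28, SE 0.58, 95% interval 1.00 to 3.55), and the adjusted p was 0.133. Cxcl5 was 3.83-fold higher (1.94, SE 0.58, 95% interval 0.65 to 3.22), with an adjusted p of 0.194. Cxcl16 was 1.55-fold higher (0.63, SE 0.16, 95% interval 0.28 to 0.98), with an adjusted p of 0.133. Cxcr4 was 2.09-fold higher (1.07, SE 0.46), with an adjusted p of 0.367. Cxcl13 differed by -1.18 (SE 0.54, adjusted p = 0.39). In these 5 genes the groups of 3 livers did not overlap, and none passed after adjustment. Cxcl1 (-0.48), Cxcl2 (0.08), Cxcl12 (-0.16) and Cxcl14 (-0.70) overlapped between the genotypes after BDL.

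The interaction was largest for Cxcr6, at 3.31 (SE 0.82, 95% interval 1.51 to 5.11, adjusted p = 0.145). Over 24 alternatives it ran from 1.91 to 3.74, with adjusted p values from 0.064 to 0.352. Without the 3 arrays with Y-linked signal, which leaves 1 FSAP-deficient BDL liver, it was 2.42. With that signal as a covariate it was 3.57 (adjusted p = 0.0642), and with slide as a block 2.40 (adjusted p = 0.352). For Cxcl5 the interaction was 1.93 (SE 0.82, adjusted p = 0.339), for Cxcl16 0.79 (SE 0.22, adjusted p = 0.168) and for Cxcr4 1.53 (SE 0.65, adjusted p = 0.336). With slide as a block, the genotype difference of Cxcl5 after BDL was 0.66 (adjusted p = 0.966), where it was 1.94 without the block. So a fall of Cxcr6 that passed in WT and not in FSAP-deficient livers was not shown to differ between the genotypes.

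**Figure D4:**
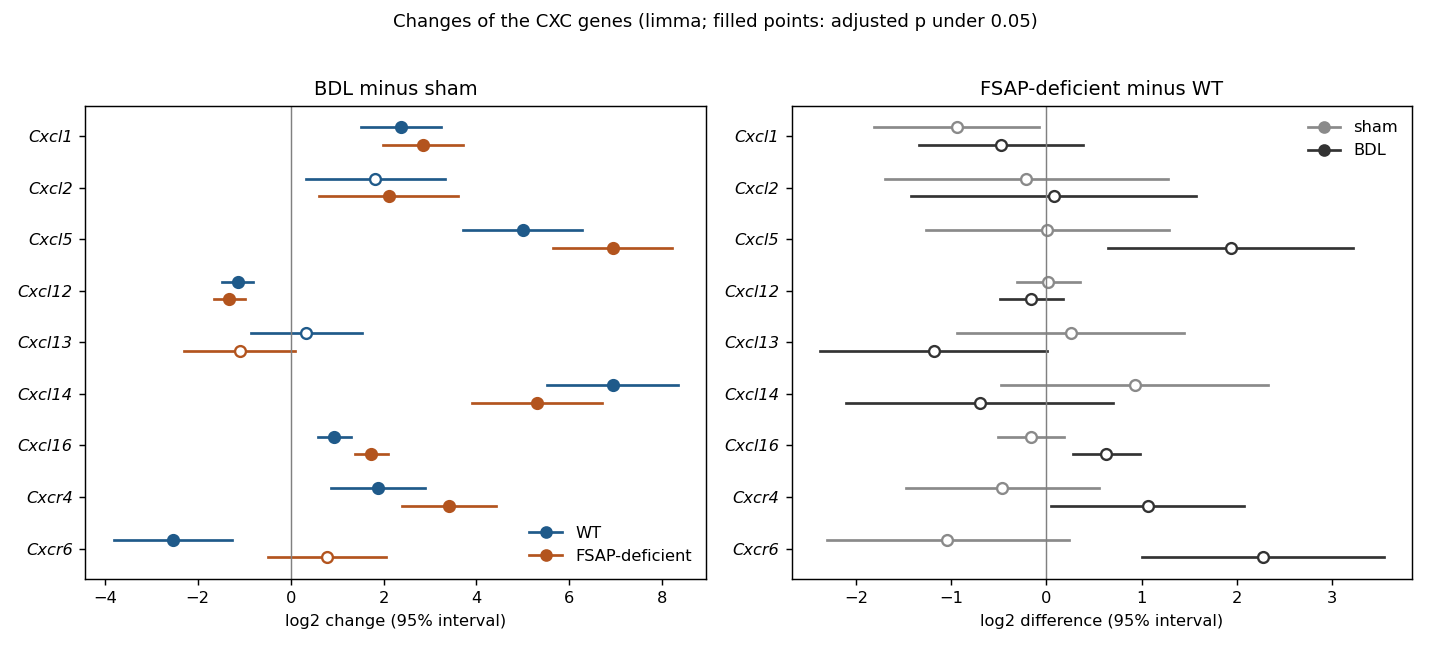
Log2 changes of the 9 genes with 95% intervals of the limma model: BDL minus sham in each genotype (left) and FSAP-deficient minus WT in sham and BDL livers (right); filled points have an adjusted p under 0.05. On the left 7 genes are filled in each genotype, and on the right none is, with Cxcr6 (2.28), Cxcl5 (1.94) and Cxcr4 (1.07) the farthest to the right after BDL.

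The rest of the pathway was followed through 4 gene lists. Of all genes tested, 15.2% rose and 17.7% fell in WT livers, and 16.2% rose and 22.8% fell in FSAP-deficient livers. With slide as a block, 3286 of the 19531 genes tested changed in WT and 4150 in FSAP-deficient livers. Of 8 other CXC chemokines on the array, 6 were tested (Cxcl3 and Cxcl15 were not), and 1 rose and 1 fell in WT while 3 rose in FSAP-deficient livers, with median changes of 0.07 and 1.85 (1.82 with Cxcl17 at its bound). Cxcl17, a mucosal chemokine, passed the filter on dim signal only through BDL livers, which favours a rise over a fall. It rose at least 1.42-fold in WT (adjusted p = 0.0219) and at least 4.39-fold in FSAP-deficient livers (adjusted p = 0.000535). Its WT call was lost without WT sham replicate 2 or WT BDL replicate 3 (measured 1.61 and 1.48, from 1.96). That WT call was also lost with normexp correction (0.25, adjusted p = 0.528), slide as a block (1.59, adjusted p = 0.263), quantile normalization (adjusted p = 0.0527) and the authors' values (adjusted p = 0.0533). Pf4, the platelet factor, rose in FSAP-deficient livers by 3.05 (SE 0.94, adjusted p = 0.0257), where replicate 3 was highest at 4.50 and the other BDL livers lay at 1.08 and 0.20. Without that replicate the Pf4 rise was 1.77 and did not pass (adjusted p = 0.0519), nor did it without FSAP-deficient sham replicate 1 (2.99) or 2 (2.92), with slide as a block (2.66, adjusted p = 0.236) or with only the FSAP-deficient groups in the fit (adjusted p = 0.0647). In the fit with slide as a block, 0 of the 6 chemokines changed in WT and 1 rose in FSAP-deficient livers. The WT change of Pf4 was 2.14 (adjusted p = 0.107), and it passed without FSAP-deficient BDL replicate 3 (adjusted p = 0.0138). Of 5 other receptors, 3 were tested, Cxcr2, Cxcr3 and Ackr3, with median changes of 1.40 and 2.52 (1.80 in FSAP-deficient livers with Cxcr2 at its bound).

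Among 7 genes for processing and clearance of chemokines, 4 rose and 1 fell in each genotype, with median changes of 0.61 and 1.13. Adam10, the protease that sheds Cxcl16, rose by 0.61 in WT and by 1.13 in FSAP-deficient livers. The gelatinase Mmp2 rose by 3.00 and 3.09. Mmp8, the neutrophil collagenase that trims Cxcl5, rose by 3.43 in WT and at least 4.84-fold in FSAP-deficient livers, and Mmp9 rose at least 2.21-fold and at least 2.10-fold. Mmp9 passed the filter on dim signal only through BDL livers, which favours a rise over a fall. Dpp4, the peptidase that inactivates Cxcl12 by removing its first residues, fell by 0.47 in WT and by 0.74 in FSAP-deficient livers. With 1 array left out, the WT call of Adam10 was lost for sham replicates 1 and 2 and BDL replicate 2 (0.55 to 0.58), that of Mmp9 for every WT sham array and BDL replicate 2 (2.23 to 3.01), and that of Dpp4 for each WT array (-0.50 to -0.45). The Mmp9 call in FSAP-deficient livers was lost without sham replicate 1 (2.78). With normexp correction Mmp9 passed in neither genotype (0.58, adjusted p = 0.307, and 0.65, adjusted p = 0.211). With slide as a block, 1 of the 7 genes rose in WT, and 2 rose and 1 fell in FSAP-deficient livers.

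Of 14 genes for signalling downstream of the receptors, 13 were tested (Elmo1 was not). In WT 5 rose (15.2% of all genes) and in FSAP-deficient livers 12 rose (16.2% of all genes), with none lower and median changes of 0.66 and 1.20. With slide as a block 2 and 8 rose, and without the 3 arrays with Y-linked signal 7 and 7. The G protein subunit Gng2 rose by 1.20 and 2.53, and Rgs1, a brake on G protein signalling in leukocytes, rose by a measured 2.74 and 2.61, with 1 of 3 sham livers of each genotype well above background and calls lost without WT sham replicate 3 (2.47) and without FSAP-deficient BDL replicate 3 (2.21). Rgs2 rose by 1.94 and 2.45, Arrb1, which uncouples receptors, by 1.11 and 1.20, and Gnb1 by 0.72 and 0.84. Rac2, a small GTPase of blood cells, rose by 2.22 in FSAP-deficient livers (SE 0.27, adjusted p = 0.00016), and its WT change was 0.66 (adjusted p = 0.0837), which passed without FSAP-deficient sham replicate 1 (adjusted p = 0.0168) or 2 (0.0481). Dock2, which activates Rac in leukocytes, rose at least 2.84-fold in FSAP-deficient livers (measured 1.91), and its WT change was 0.64 (adjusted p = 0.262). The Dock2 call was lost with normexp correction (0.46, adjusted p = 0.142), with the mean of its probes (1.04, adjusted p = 0.115), with slide as a block (1.14, adjusted p = 0.0674) and without the arrays with Y-linked signal (1.20, adjusted p = 0.0976). With all 12 arrays, no gene of these 4 lists passed in a genotype comparison or in the interaction. Median changes of a list stand beside -0.03 in WT and -0.16 in FSAP-deficient livers over all genes tested.

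**Figure D5:**
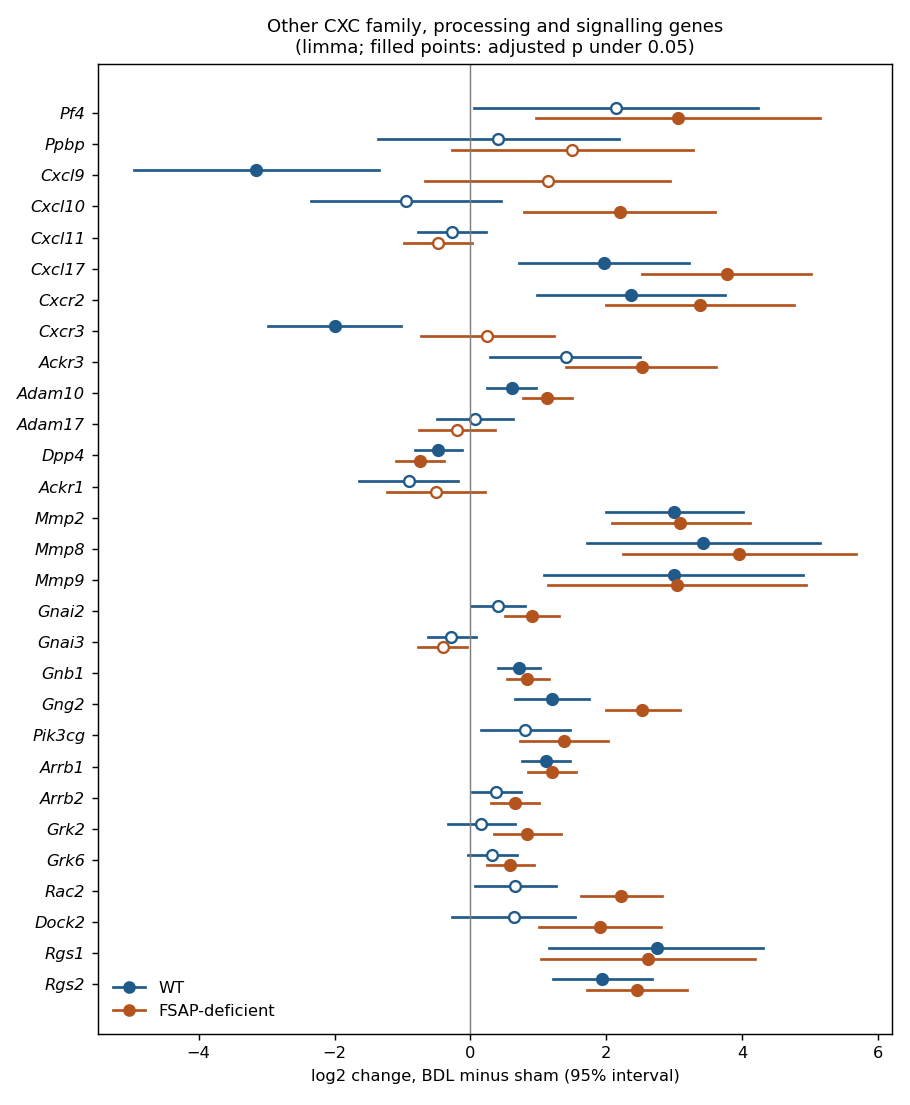
Log2 change after BDL, with 95% intervals of the limma model, for the other CXC chemokines and receptors, processing enzymes and receptor signalling genes that were tested, in WT and FSAP-deficient livers; filled points have an adjusted p under 0.05. In the signalling genes, 12 points are filled in FSAP-deficient and 5 in WT livers, where 16.2% and 15.2% of all genes tested rose. For Cxcl9 and Cxcr3 only the WT point, below 0, is filled.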

How the data were processed

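Liver RNA of 12 mice was read on 12 arrays. The deposited scanner files hold spot intensity on a linear scale, written by Agilent Feature Extraction 10.5.1.1, which subtracted background and detrended the signal within the array, per the file headers. The deposited series matrix holds the authors' log2 values of the same arrays, whose medians were 5.655 to 5.665 and which correlated with the scanner values at 0.9989 or more. It served as an alternative, with a normalization not given in the sources used here. Log2 of the processed intensity minus each array's 75th percentile was used. Control spots and spots marked as outliers were left out, repeated spots of a probe were averaged, and each gene was read from its brightest probe. Of 33063 probes with a RefSeq accession, 26412 matched the reference table, and their symbols were taken from it. Genes well above background on at least 3 arrays were tested, which left 19531 of 31870.

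One model of the 4 group means was fitted in limma 3.58.1 (R 4.3.3), with 8 residual degrees of freedom and two-sided tests adjusted over all genes tested by the Benjamini-Hochberg method at 0.05. "Rose", "fell" and "changed" stand for results past that threshold. Errors of changes are standard errors of the model with 3 mice per group, and the number of arrays limits the precision. The procedure was tested on simulated data. Similar profiles are the 2 genes with the smallest root mean square difference from a member over 12 arrays, of 15864 genes compared, and named pathway genes are those past the threshold, up to 8 per list. The members and gene lists were chosen with earlier results of these data known. Replicates were single mice. Alternatives were other background correction, scaling, filters, probe choice, blocks, covariates and the leaving out of arrays.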

Additional observations from a re-analysis of the deposited data

How the results depend on the processing

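Of 1111 values recomputed for the 9 CXC genes under other settings, 1 called value changed sign, 12 lost their call and 2 gained one, and 36 that passed under neither setting changed sign. Of 2718 values of the other named genes, 76 lost a call, 21 gained one and none changed sign with a call. The count of the 9 CXC genes that changed after BDL, 7 in each genotype, was 5 to 8 in WT and 6 to 7 in FSAP-deficient livers over all alternatives, and 7 to 8 and 6 to 7 with 1 array left out. The value that changed sign was Cxcl2 in FSAP-deficient livers, -0.0049 with normexp correction (adjusted p = 0.987). Its adjusted p was 0.0549 with quantile normalization, 0.0552 on the authors' values and 0.107 without the 3 arrays with Y-linked signal. With normexp correction the BDL changes of Cxcl2, Cxcl5 and Cxcr4, which were near or below background in sham livers, came out smaller in both genotypes. The cause of the other lost calls was not tested. Leaving out the 3 arrays with Y-linked signal and using the dimmer probes of Cxcl12 and Cxcr6 were alternatives chosen after seeing the data.

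The replicate numbers of the labels did not pair the mice: over 18 same-number pairs the correlation of deviations ran from -0.202 to 0.191 and was over 0.1 in 2. With the replicate block, 7 and 7 of the 9 genes changed after BDL, and 0 differed between genotypes after sham, 0 after BDL and 0 in the interaction, as without it. Over all genes, the count called was 6420 in WT and 7631 in FSAP-deficient livers, and 3286 and 4150 with slide as a block. For the genotype difference after BDL it was 42, with 2 (slide as a block) to 139 (normexp) over the alternatives, and for the interaction 2, with 0 to 368 (Y-linked signal as a covariate). For the genotype difference in sham livers it was 3, and 1 with only those groups in the fit. With median scaling in place of the 75th percentile, the median change of all genes moved from -0.03 to -0.19 in WT and from -0.16 to -0.36 in FSAP-deficient livers.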
